A study of Mus musculus with 12 samples.

Results

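The genes described here encode core and regulatory factors of pre-mRNA splicing: the SR proteins (Srsf), the heterogeneous nuclear ribonucleoproteins (Hnrnp), the Sm and other small nuclear ribonucleoprotein polypeptides (Snrp), and the SF3a and SF3b subunits of the U2 particle. They were picked out by symbol, and the set was chosen with earlier results of these data known. Of the 55450 genes in the table, 57 had a symbol beginning with Srsf, Hnrnp, Snrp, Sf3a or Sf3b. The rule left out 2 of them by name and 4 whose symbols end in a pseudogene suffix, which gave 51 members: 10 Srsf, 20 Hnrnp, 13 Snrp, 3 Sf3a and 5 Sf3b. In the annotation 50 of the 51 are protein coding, and the exception is Snrpert, a processed pseudogene. After the filter on low counts 49 were tested. The untested members were Srsf12, with 5 counts over all 12 libraries, and Snrpn, with 1 count.

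The RNA came from mouse bone marrow donor cells that lack lineage markers and carry Kit (Lin- Kit+, a gate of blood stem and progenitor cells), sorted from recipients of a competitive transplant. There were 4 genotype labels with 3 libraries each: WT, Tet2KO (null for Tet2, a methylcytosine dioxygenase), Id1KO (null for Id1, an inhibitor of basic helix-loop-helix factors), and the double knockout, called dKO here. In all 4 groups the cells had been transplanted. The labels used here give neither the alleles and promoters used to delete the genes nor the age of the animals, and the 3 libraries of a genotype carry the same sample number. They may be repeat libraries of 1 cell sample, so p-values measure the spread between libraries, and a genotype and its cell sample cannot be told apart.

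Splicing removes introns through the spliceosome, which is built from small nuclear RNAs and their proteins. Sm proteins form a ring on each small nuclear RNA, U1 and U2 proteins recognise the 5′ splice site and the branch point, and the SF3a and SF3b complexes hold the U2 particle there. SR proteins bind exonic enhancers and mostly promote exon inclusion, whereas many hnRNPs bind silencers and favour skipping, though the effect of each depends on where it binds. Several SR and hnRNP genes contain poison exons whose inclusion sends their own mRNA to decay. Recurrent mutations of splicing factors, often together with TET2 mutations, are known in human myeloid disease.

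Library totals ranged from 15706368 to 19959153 rounded counts. The members together took 1.45% to 1.49% of the counts in the WT libraries, 1.44% to 1.46% in Tet2KO, 1.48% to 1.53% in Id1KO and 1.46% to 1.54% in dKO. The targeted genes differed between the labels, but not in the direction of a loss: Tet2 averaged 99.3 CPM (counts scaled to a common library size with TMM) in WT, 129.8 in Tet2KO, 91.9 in Id1KO, with 118 in dKO. Id1 averaged 1.47, 3.86, 3.96 and 3.93 CPM in the same order. Tet2 was higher in every Tet2KO and dKO library than in any WT or Id1KO library (0.39 on the log2 scale in Tet2KO against WT, adjusted p = 7.99e-09). Id1 was lowest in the WT libraries (1.24 to 1.76 CPM, against 3.35 to 4.35 in the others). Neither gene was lower in the libraries labelled as its knockout than in WT, and counts over a whole gene need not show a deletion of part of it, so the groups are the libraries labelled with each genotype throughout. The defining genes Kit, Cd34, Myb and Gata2 were present in all libraries, with a summed level of 1470 to 1660 CPM. The 11 erythroid markers summed to 1280 to 1320 CPM in WT, 708 to 713 in Tet2KO, 1370 to 1380 in Id1KO, with 1230 to 1250 in dKO, with none at 0. All 11 were lower in Tet2KO than in WT and higher in dKO than in Tet2KO. Neutrophil granule markers summed to 14400 to 14500 CPM in WT, 15900 to 16200 in Tet2KO, 12200 to 13200 in Id1KO, with 12000 to 13200 in dKO, and its 10 genes did not move together: 5 rose and 2 fell in Tet2KO against WT, and 3 rose and 3 fell in dKO against WT. Monocyte and dendritic markers (5 of 6 tested, Siglech below the limit) summed to 1490 to 1530 CPM in Tet2KO and 1370 to 1400 in dKO, above the 1180 to 1230 of WT and the 1080 of Id1KO. Megakaryocyte markers (6 of 6 tested) summed to 168 to 179 CPM in Id1KO, above the 121 to 137 of the other groups. Of these 6, 2 were called higher in Id1KO against WT and 4 were not called. Mast cell and basophil markers (6 of 6 tested) summed to 151 to 158 CPM in WT and 164 to 167 in Tet2KO. They summed to 149 to 159 in Id1KO and 141 to 146 in dKO. Of them 3 rose and 1 fell in Tet2KO against WT. In bulk RNA fewer cells of a type and less RNA per cell cannot be told apart. The part of these marker differences in the results below was not tested.

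The members spanned a wide range of levels. Per kilobase of merged exon, Hnrnpa1, which shuttles between nucleus and cytoplasm and often favours exon skipping, was the highest, at 355.5 CPM per kilobase over the 12 libraries. The highest of the other families were Snrpb, encoding Sm protein B, at 135.5, Srsf1, the founding SR protein, at 122.7, Sf3b2 at 54.5 and Sf3a3 at 39.4. The 3 libraries of each genotype held Hnrnpa1 at 1152 ± 15.2 CPM (SD, n = 3) in WT, 1117 ± 15.3 in Tet2KO, 1113 ± 18.7 in Id1KO, with 1101 ± 28.9 in dKO, and it passed no test. On this scale the lowest protein-coding members tested were Hnrnpr, at 8.31 CPM per kilobase, Hnrnpll at 8.70 and Hnrnph3 at 8.71. The length merges the exons of all annotated transcripts, so a long merged length lowers the value. Hnrnpr had 22199 merged bases and averaged 184.6 CPM, whereas Hnrnph3 had 3151 and averaged 27.45 CPM. Snrpn, the imprinted neuronal paralogue of Snrpb, had a single count, in a dKO library, while Snrpb had 4152 to 5349 counts in every library. Srsf12 had at most 2 counts in a library. A level of 3 counts corresponds to 0.15 to 0.191 CPM here, and these limits cover counting error only.

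**Figure D1:**
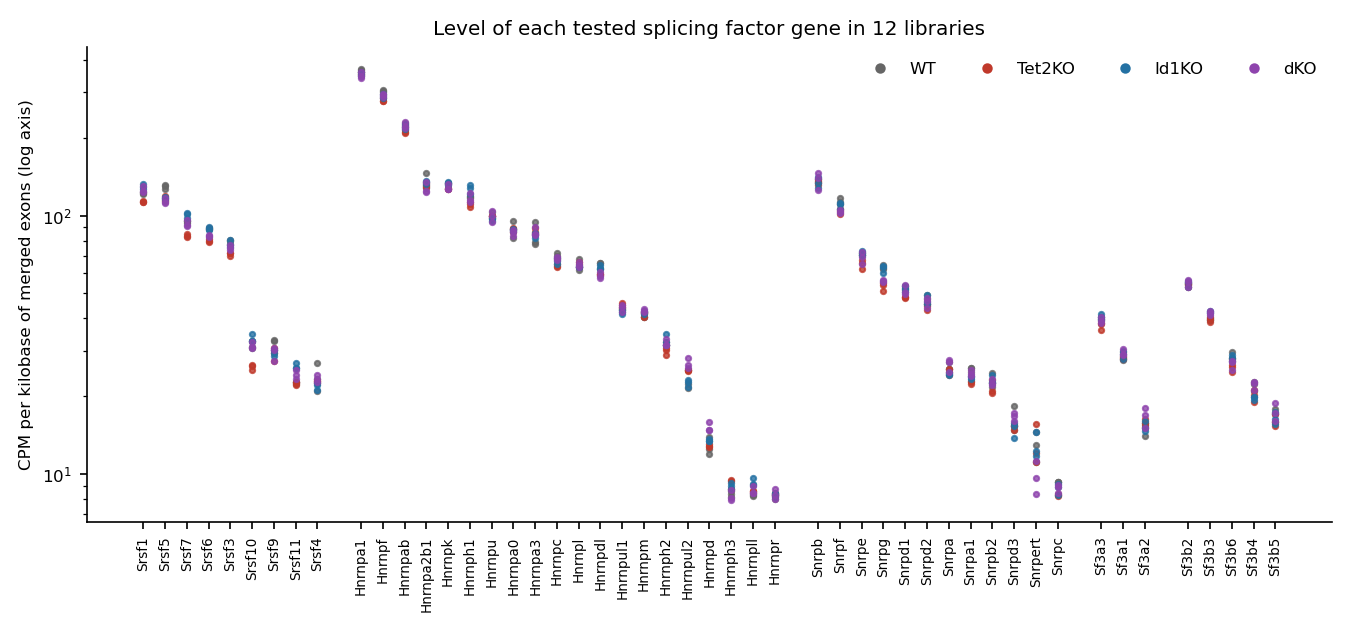
Level of the 49 tested members in CPM per kilobase of merged exons (log axis), by family and in order of mean level; each point is 1 library, coloured by genotype label. The genotypes lie close together at every gene, whereas the genes range from 8.31 (Hnrnpr) to 355.5 (Hnrnpa1) CPM per kilobase. The length merges the exons of all annotated transcripts and is 22199 bases for Hnrnpr.

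Changes were small and leaned one way in the Tet2KO libraries. Against WT, 21 of 49 members passed edgeR's quasi-likelihood test at an adjusted p under 0.05, and 20 of these were lower in Tet2KO and 1 higher. That is 42.9% of the members, beside 32.8% of all 14346 genes tested. The lower calls made up 40.8% of members, beside 16.2% of all genes, and the higher calls 2.04%, beside 16.6%. The median log2 fold change was -0.09 over the members and -0.003 over all genes. No called member other than Srsf10 changed by more than 1.2-fold, and 9 exceeded 1.1-fold. Tet2KO had the lowest mean of the 4 genotypes at 26 of the 49 members (53.1%), beside 31.6% of all genes tested.

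These counts depended on how libraries were scaled. TMM factors were 0.972 to 0.974 in the WT libraries and 1.004 to 1.02 in the others, so the factors themselves separate WT from the rest. With library totals alone, an alternative chosen after the data were seen, the median over all genes moved to 0.05 and that over the members to -0.03. The calls then were 13, of which 8 were lower and 5 higher, and 9 of the 13 were shared with the TMM calls. Over all 14346 genes that scaling called 4759, of which 1377 were lower and 3382 higher (71.1% of the calls). Scaling by RLE, by upper quartile or without mitochondrial and small structural RNA genes gave 22 calls each, with 20 or 21 lower. Over all genes these scalings gave 4698, 4695 and 4714 calls.

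**Figure D2:**
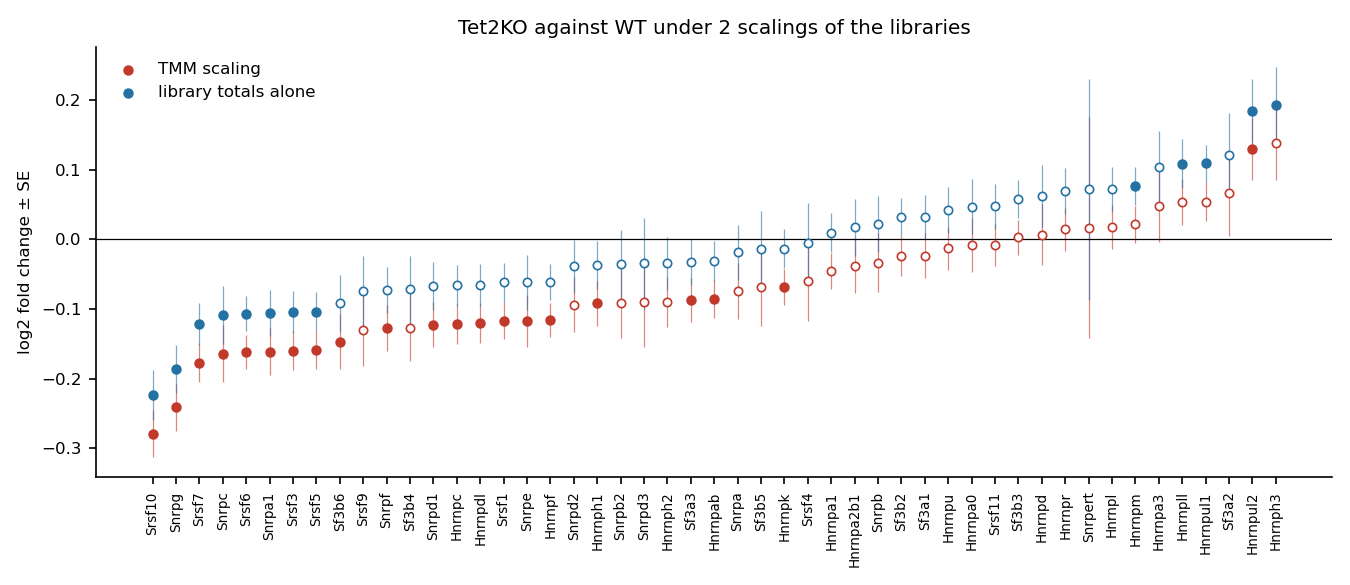
Log2 fold change ± SE of the 49 tested members in Tet2KO against WT, in order, with TMM scaling (red) and with library totals alone (blue); filled points had an adjusted p under 0.05. The blue points lie above the red ones throughout; 8 genes from Srsf10 to Srsf5 remain filled below 0 under both scalings.

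The remaining comparisons gave fewer calls. Id1KO against WT had 8 called members (16.3%, beside 15.0% of all genes), near the background. Of these 5 were higher (10.2%, beside 7.26% of all genes) and 3 lower (6.12%, beside 7.77%). There were 11 with library totals alone, 10 higher and 1 lower, beside 2118 higher and 625 lower over all 14346 genes. The lower member was Srsf5. The 8 fell to 5 without WT 1 and to 4 without WT 3, Id1KO 1 or Id1KO 3. Over all genes these fits gave 1513 to 1664 calls, beside 2156 with all libraries. In dKO against Tet2KO 12 were called (24.5%, beside 26.4% of all genes). Of these 11 were higher (22.4%, beside 13.1%) and 1 lower (2.04%, beside 13.4%), and the median was 0.06, beside -0.0001. Without Tet2KO 3 there were 6 and without Tet2KO 2 there were 7, beside 2986 and 3026 over all genes. This comparison uses the same Tet2KO libraries as Tet2KO against WT, so the opposite signs of the medians are not separate evidence. In dKO against Id1KO 11 members were called (22.4%, beside 19.3% of all genes), 4 higher (8.16%, beside 10.6%) and 7 lower (14.3%, beside 8.7%). That count ran from 4 without dKO 3 through 6 without dKO 1 or Id1KO 3 and 7 without Id1KO 1 to 17 without dKO 2. Over all genes 2172 were called without dKO 3 and 2618 without dKO 2, beside 2762 with all libraries. In dKO against WT 9 were called (18.4%, beside 19.2% of all genes), 4 higher (8.16%, beside 10.2%) and 5 lower (10.2%, beside 8.97%). There were 11 calls with library totals alone, of which 9 were higher and 2 lower, beside 2589 higher and 769 lower over all 14346 genes. The test of whether the Id1 label's change differed between the backgrounds (the interaction) called 9 members (18.4%, beside 14.5% of all genes), 7 positive (14.3%, beside 7.46%) and 2 negative (4.08%, beside 7.03%).

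**Figure D3:**
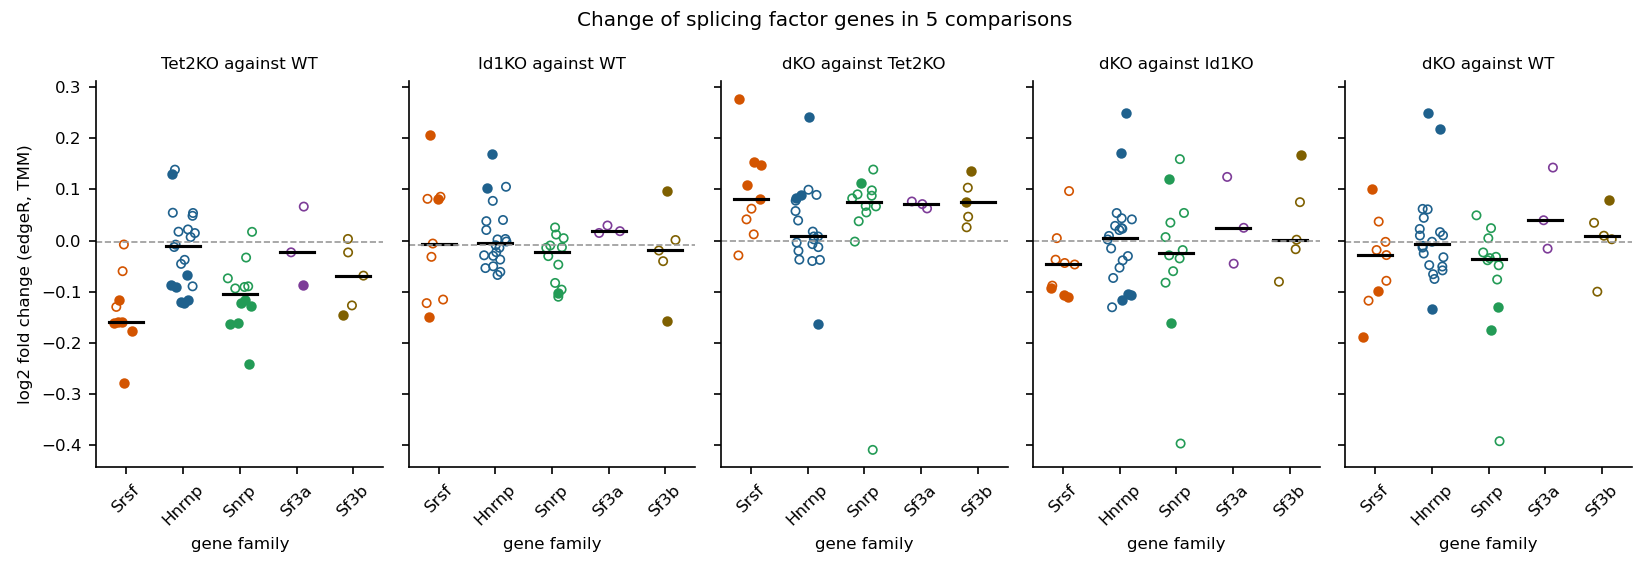
Log2 fold change (TMM scaling) of each tested member by family in 5 comparisons; filled points had an adjusted p under 0.05, black bars are family medians and the dashed line is the median of all genes tested. The Srsf points all lie below 0 in Tet2KO against WT, with a median of -0.16, while the Hnrnp median is -0.01; the lowest Snrp point in the dKO panels is the pseudogene Snrpert.

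Among the SR proteins all 9 tested genes had a negative log2 fold change in Tet2KO against WT, with a median of -0.16. Over all genes 7248 of 14346 were negative. Srsf1, Srsf3, Srsf5, Srsf6, Srsf7 and Srsf10 fell (66.7%, beside 16.2% of all genes), and with library totals alone the same genes except Srsf1 did (0 higher under either scaling). Srsf10 encodes an SR protein that acts as a repressor when dephosphorylated and as a sequence-dependent activator otherwise. It measured 217, 228 and 216 CPM in WT, 177, 185 and 183 in Tet2KO, 228, 229 and 244 in Id1KO, with 215, 228 and 217 in dKO. Every Tet2KO library lay below every other library. The log2 fold change against WT was -0.28 ± 0.034 (SE), a fall of 17.6% (adjusted p = 2.6e-06, edgeR). In dKO against Tet2KO it rose by 0.28 ± 0.034 (adjusted p = 5.91e-06), and dKO and WT libraries overlapped.

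Srsf7, which carries a zinc knuckle and regulates its own mRNA through a poison exon, measured 338, 338 and 333 CPM in WT and 297, 302 and 294 in Tet2KO. Its levels were 362, 347 and 359 in Id1KO, with 325, 343 and 322 in dKO. Tet2KO was lowest in every library and Id1KO highest. The log2 fold change was -0.18 ± 0.028 in Tet2KO against WT (adjusted p = 6.62e-05) and 0.15 ± 0.028 in dKO against Tet2KO (adjusted p = 0.000608). It was -0.11 ± 0.028 in dKO against Id1KO (adjusted p = 0.00826, or 0.0521 without dKO 3). Srsf6, an SR protein that regulates tau exon choice among other targets, measured 431, 428 and 431 CPM in WT and 379, 390 and 385 in Tet2KO, with 434, 424 and 427 in Id1KO, with 398, 401 and 406 in dKO. Both Tet2-labelled groups lay below both others without overlap. The changes were -0.16 ± 0.024 in Tet2KO against WT (adjusted p = 3.49e-05) and -0.09 ± 0.024 in dKO against Id1KO (adjusted p = 0.00938, or 0.0507 without Id1KO 1).

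Srsf1, which promotes exon inclusion and links splicing to translation, measured 693, 699 and 707 CPM in WT, 643, 649 and 643 in Tet2KO, 739, 723 and 758 in Id1KO, with 701, 739.7 and 712 in dKO. The order of the means was Tet2KO, WT, dKO and Id1KO, and only WT and dKO, and dKO and Id1KO, overlapped. Srsf1 fell by 0.12 ± 0.027 in Tet2KO against WT (adjusted p = 0.00203, but 0.107 with library totals alone). It rose by 0.15 ± 0.027 in dKO against Tet2KO (adjusted p = 0.000235). In Id1KO against WT it rose by 0.08 ± 0.027 (adjusted p = 0.044). That call was lost without any of WT 1, WT 2, WT 3, Tet2KO 1, Tet2KO 3, Id1KO 1 or Id1KO 3, with adjusted p from 0.0518 to 0.147. Srsf3, a small SR protein that regulates its own mRNA, measured 627 ± 11.5 CPM in WT, 561 ± 7.92 in Tet2KO, 613 ± 20.2 in Id1KO, with 594 ± 12.6 in dKO (SD, n = 3), and fell by 0.16 ± 0.028 in Tet2KO against WT (adjusted p = 0.000205). It rose by 0.08 ± 0.029 in dKO against Tet2KO (adjusted p = 0.0409), which was lost without 7 of the 12 libraries, WT 3, any Tet2KO library, Id1KO 1, dKO 1 or dKO 2 (0.0513 to 0.16).

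Srsf5, known to be induced in growing cells, followed another order. It measured 521, 524 and 507 CPM in WT, 459, 476 and 455 in Tet2KO, 468, 461 and 469 in Id1KO, with 446, 467 and 449 in dKO. The WT libraries lay above all 9 others. It fell by 0.16 ± 0.027 in Tet2KO (adjusted p = 0.000133), by 0.15 ± 0.027 in Id1KO (adjusted p = 0.00067) and by 0.19 ± 0.027 in dKO (adjusted p = 4.12e-05), each against the same WT libraries. With library totals alone these changes kept their sign, with adjusted p of 0.00806, 0.0191 and 0.00182. Srsf11, which has an RS domain and acts with U1 and U2 factors, measured 192, 192 and 188 CPM in WT and 187, 191 and 192 in Tet2KO, against 226, 216 and 218 in Id1KO, with 196, 213 and 204 in dKO. The Id1KO libraries lay above all others and the dKO libraries above the WT and Tet2KO ones. It rose by 0.21 ± 0.03 in Id1KO against WT (adjusted p = 8.44e-05) and by 0.11 ± 0.031 in dKO against Tet2KO (adjusted p = 0.0128, or 0.0592 without Tet2KO 1 and 0.0769 without dKO 2). Its difference between Tet2KO and WT was -0.01, with a 95% interval from -0.07 to 0.05. Srsf11 fell by 0.11 in dKO against Id1KO, a call lost without Id1KO 1, dKO 1 or dKO 3 (adjusted p 0.0584 to 0.107). In dKO against WT it rose by 0.10, which was lost without WT 3 or dKO 2 (0.0874 to 0.109). Srsf4 and Srsf9, both shuttling SR proteins, passed no test, and 1 WT library of Srsf4 stood apart at 95.7 CPM beside 74.9 and 83.3.

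**Figure D4:**
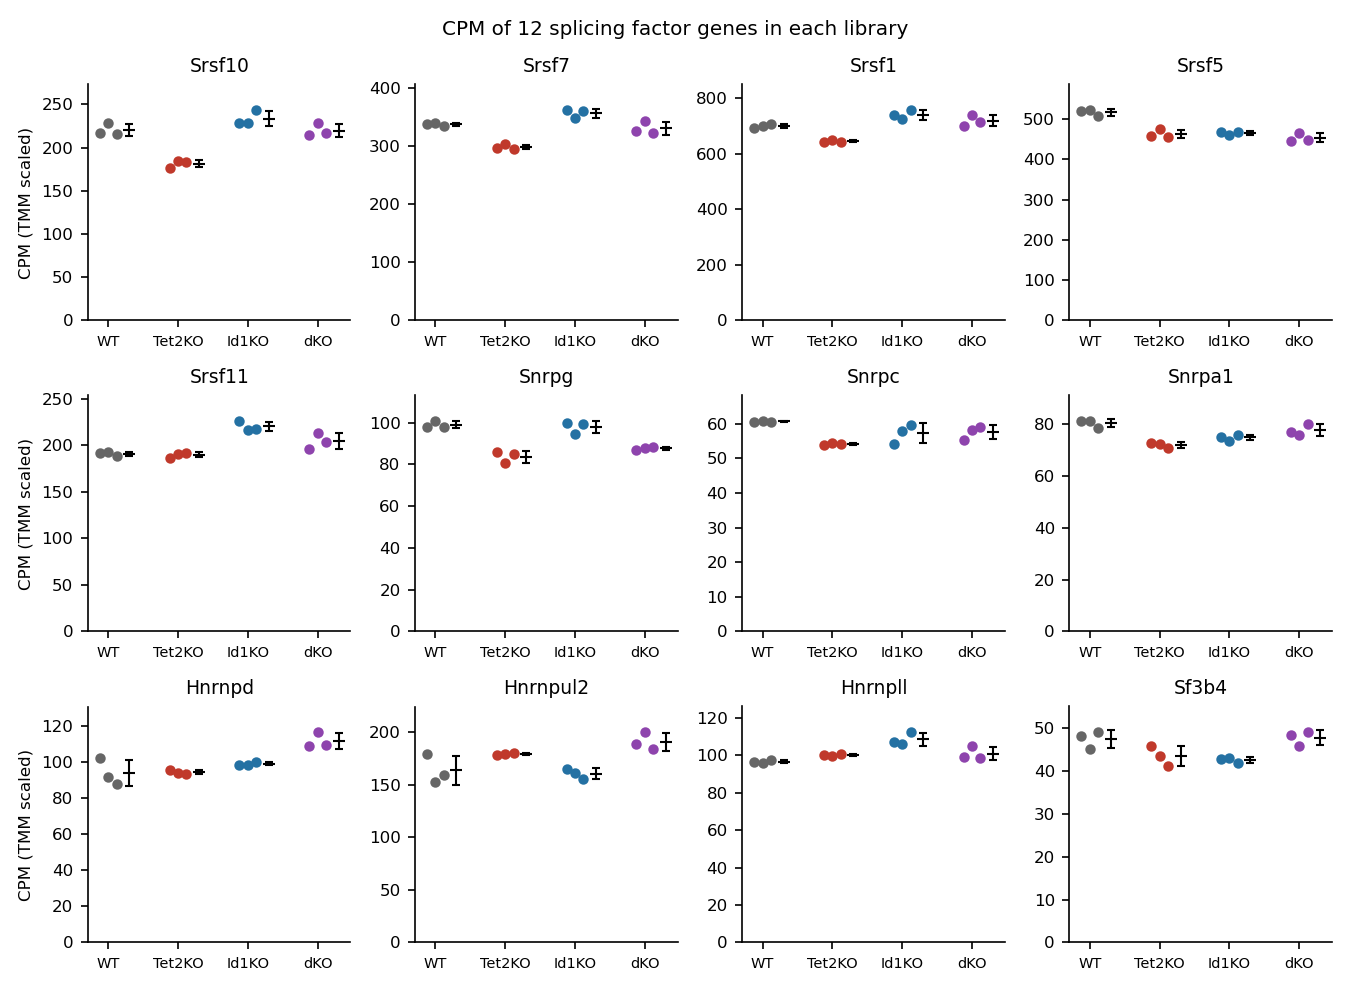
CPM (TMM scaled) of 12 named members in each library; coloured points are libraries, and the black mark beside each group is its mean with the SD of 3 libraries. Srsf10 lies lowest in Tet2KO (177 to 185 CPM), Srsf11 and Hnrnpll highest in Id1KO, and Hnrnpd highest in dKO (109 to 117 CPM).

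The sequences upstream of SR genes that fell in Tet2KO are shown so that the shared features can be read. They come from RefSeq (build GRCm38.p6), cover bases 250 to 11 before the annotated start, and are printed only where a run of at least 90 bases overlaps no annotated exon. This held for Srsf5, Srsf6 and Srsf7; the windows of Srsf1, Srsf3 and Srsf10 overlap exons over most or all of their length. Capitals mark the GC box (GGGCGG, or CCGCCC on the other strand) and, in Srsf5, the ETS core (CCGGAAG or CTTCCGG). The leading capitals of Srsf5 are the end of a GC box that begins before the printed stretch, and another GC box overlaps an ETS core there. Srsf5 lies at chr12:80945397-80945488 on the plus strand, Srsf6 at chr2:162931258-162931497 on the plus strand and Srsf7 at chr17:80207316-80207459 on the minus strand.
Srsf5: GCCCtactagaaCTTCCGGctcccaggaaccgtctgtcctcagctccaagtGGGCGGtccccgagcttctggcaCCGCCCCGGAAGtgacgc
Srsf6: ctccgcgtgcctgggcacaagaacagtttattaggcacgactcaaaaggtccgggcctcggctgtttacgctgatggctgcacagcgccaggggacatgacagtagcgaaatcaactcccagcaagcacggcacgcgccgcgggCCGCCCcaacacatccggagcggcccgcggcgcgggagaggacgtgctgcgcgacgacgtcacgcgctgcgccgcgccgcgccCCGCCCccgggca
Srsf7: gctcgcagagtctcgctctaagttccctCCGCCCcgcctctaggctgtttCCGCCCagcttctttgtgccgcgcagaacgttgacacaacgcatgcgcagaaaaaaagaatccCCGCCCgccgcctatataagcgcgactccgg
All 3 stretches hold at least 2 GC boxes, and no ETS core lies in the printed stretch of Srsf6 or Srsf7. Of the 51 members 44 had a RefSeq window. Searched on both strands, the ETS core was in 13 of the 44 (29.5%), beside 12.8% of 9878 tested genes and 6.28% of all 27025 windows. The GC box was in 30 (68.2%, beside 56.1% and 31.5%) and CCAAT in 20 (45.5%, beside 36.3% and 33.7%). TATAAA was in 4 (9.09%, beside 6.02% and 12.7%), TCGCGAGA in 3 (6.82%, beside 1.95% and 0.87%), and the E box CACGTG in 3 (6.82%, beside 7.89% and 5.71%). Among the 19 members with a window that fell in Tet2KO, 7 had an ETS core and 10 a GC box. Beside the shares above, the GC box was less frequent in these 19 than in all members or in tested genes. The ETS core was more frequent in them than in either, and no difference was tested. The motifs were chosen after some of the windows had been seen. Median GC content of the windows was 61.0% for members, 59.2% for tested genes and 52.1% for all. A match shows that the letters occur, not that a factor binds.

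Among the hnRNPs the median log2 fold change of the 20 genes in Tet2KO against WT was -0.01. With TMM scaling 6 fell (30%, beside 16.2% of all genes) and 1 rose (5%, beside 16.6%). With library totals alone 0 fell and 5 rose, beside 1377 that fell and 3382 that rose over all 14346 genes. The 6 were Hnrnpc, Hnrnpdl, Hnrnpf, Hnrnph1, Hnrnpab and Hnrnpk, with log2 fold changes from -0.12 to -0.07, and the calls of Hnrnpc, Hnrnpdl and Hnrnpf held when any library was left out. Hnrnph1 was lost without 7 of the 12 libraries in turn, WT 1, WT 2, WT 3, Tet2KO 1, Tet2KO 3, Id1KO 1 or dKO 3 (adjusted p 0.0555 to 0.146). Hnrnpab was lost without WT 1, WT 2, Tet2KO 2 or Tet2KO 3 (0.0608 to 0.116). Hnrnpk was lost without 10 of the 12, all but Id1KO 2 and dKO 2 (0.0603 to 0.159). In dKO against Tet2KO, Hnrnpc, which packages nascent transcripts, rose by 0.09 ± 0.029 (adjusted p = 0.0269) and Hnrnpab by 0.08 ± 0.028 (adjusted p = 0.0291). Both were lost without Tet2KO 2, Tet2KO 3 or dKO 2, Hnrnpc also without dKO 1 and Hnrnpab also without dKO 3 (0.0617 to 0.102 and 0.0623 to 0.131).

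Hnrnpdl, a paralogue of Hnrnpd, measured 315, 315 and 299.5 CPM in WT, 287, 285 and 283 in Tet2KO, 299.7, 302 and 309 in Id1KO, with 281, 291 and 275 in dKO. Both Tet2-labelled groups lay below both others. It fell by 0.12 ± 0.028 in Tet2KO against WT (adjusted p = 0.0028) and by 0.10 ± 0.029 in dKO against Id1KO (adjusted p = 0.0137), comparisons that share no library. The second was lost without Id1KO 3 (0.0562) or dKO 3 (0.0806). It also fell by 0.13 ± 0.029 in dKO against WT (adjusted p = 0.00228, or 0.0652 with library totals alone).

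Hnrnpd, also known as AUF1, which binds AU-rich elements and promotes mRNA decay, stood out in dKO. It measured 109, 117 and 109 CPM in dKO, above every other library, against 102, 91.9 and 88.0 in WT, 95.9, 94.3 and 93.5 in Tet2KO and 98.8, 98.8 and 100.3 in Id1KO. The change was 0.25 ± 0.043 in dKO against WT (adjusted p = 0.000294), 0.24 ± 0.043 against Tet2KO (adjusted p = 0.000324) and 0.17 ± 0.043 against Id1KO (adjusted p = 0.00716). These share the dKO libraries. Hnrnpul2, an hnRNP U-like protein with a role in the DNA damage response, measured 179, 153 and 159 CPM in WT, 178, 179 and 180.3 in Tet2KO, 165, 161 and 155 in Id1KO, with 188, 200.2 and 184 in dKO. The library WT 1 lay among the Tet2KO ones. It was the member that rose in Tet2KO against WT, by 0.13 ± 0.045 (adjusted p = 0.0306), and that call was lost without WT 2, WT 3 or any Tet2KO library (adjusted p 0.0598 to 0.17). It rose by 0.25 ± 0.045 in dKO against Id1KO (adjusted p = 0.00045) and by 0.22 ± 0.045 in dKO against WT (adjusted p = 0.00147).

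Hnrnpll, the regulator of CD45 exon skipping in lymphocytes, measured 96.6, 95.7 and 97.5 CPM in WT, 100.1, 99.8 and 100.7 in Tet2KO, 107, 106 and 113 in Id1KO, with 99.0, 105 and 98.4 in dKO. The Id1KO libraries were the highest. It rose by 0.17 ± 0.032 in Id1KO against WT (adjusted p = 0.00111) and fell by 0.11 ± 0.032 in dKO against Id1KO (adjusted p = 0.0244). The second was lost without Id1KO 3, dKO 1 or dKO 3 (0.0911 to 0.121). Summed B and T cell markers were 24.7 to 28.1 CPM in WT and 23.3 to 26.8 in Id1KO, and Cd3e, Cd3g, Cd4 and Cd8a were below the limit of the test.

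Hnrnph1, an hnRNP that binds G-rich runs, measured 693, 691 and 680.0 CPM in WT, 630.1, 661 and 646 in Tet2KO, 743, 709 and 765 in Id1KO, with 656, 715 and 673 in dKO. It rose by 0.10 ± 0.033 in Id1KO against WT (adjusted p = 0.037), a call lost without any WT library, Id1KO 1 or Id1KO 3 (0.0548 to 0.145). It fell by 0.12 ± 0.033 in dKO against Id1KO (adjusted p = 0.0152), where the libraries dKO 2 and Id1KO 2 overlapped, and this was lost without Id1KO 1, Id1KO 3, dKO 1 or dKO 3 (0.0527 to 0.0848). Its paralogue Hnrnph3 measured 26.5, 25.8 and 27.0 CPM in WT, 27.6, 29.9 and 29.7 in Tet2KO, 28.4, 27.6 and 29.2 in Id1KO, with 25.0, 27.4 and 25.4 in dKO. It fell by 0.16 ± 0.054 in dKO against Tet2KO (adjusted p = 0.0307), the 1 member lower there, and this was lost without Tet2KO 2, Tet2KO 3, dKO 1 or dKO 3 (0.0939 to 0.109). In Tet2KO against WT its value was 0.14 ± 0.053 (adjusted p = 0.0508).

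Of the 12 tested Snrp genes 11 had a negative log2 fold change in Tet2KO against WT, beside 7248 of 14346 over all genes. Snrpg, Snrpc, Snrpa1, Snrpf, Snrpd1 and Snrpe fell (50%, beside 16.2% of all genes). With library totals alone the first 3 of these did and none rose. Snrpg, Snrpf, Snrpd1 and Snrpe encode Sm ring proteins, Snrpc encodes the U1 protein C that contacts the 5′ splice site, and Snrpa1 encodes the U2 protein A′. Snrpg measured 98.1, 100.9 and 97.8 CPM in WT, 85.7, 80.5 and 84.8 in Tet2KO, 99.97, 94.5 and 99.5 in Id1KO, with 86.8, 87.9 and 88.2 in dKO. Both Tet2-labelled groups lay below both others. It fell by 0.24 ± 0.033 in Tet2KO against WT (adjusted p = 1.32e-05), by 0.16 ± 0.034 in dKO against Id1KO (adjusted p = 0.00178) and by 0.17 ± 0.033 in dKO against WT (adjusted p = 0.000803). Near-identical copies exist for Snrpg: the gene held 90.9% of the counts summed with its 3 copies, and the summed change in Tet2KO against WT was -0.25.

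Snrpc measured 60.6, 60.8 and 60.6 CPM in WT, 53.9, 54.4 and 54.1 in Tet2KO, 54.2, 58.0 and 59.7 in Id1KO, with 55.3, 58.1 and 59.1 in dKO. The WT libraries were the highest, and 1 Id1KO library overlapped Tet2KO. It fell by 0.16 ± 0.041 in Tet2KO against WT (adjusted p = 0.00392, or 0.0495 with library totals alone). Snrpa1 measured 81.3, 81.4 and 78.6 CPM in WT, 72.9, 72.3 and 70.7 in Tet2KO, 75.2, 73.7 and 75.9 in Id1KO, with 77.1, 75.9 and 80.3 in dKO. Tet2KO was lowest in every library. It fell by 0.16 ± 0.034 in Tet2KO against WT (adjusted p = 0.000921) and rose by 0.11 ± 0.034 in dKO against Tet2KO (adjusted p = 0.0192, or 0.085 without Tet2KO 3 and 0.108 without dKO 3). In Id1KO against WT it fell by 0.10 ± 0.033 (adjusted p = 0.041), which was lost without 10 of the 12 libraries in turn, all but dKO 2 and dKO 3 (0.0503 to 0.128).

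Snrpf measured 97.7 ± 2.97 CPM in WT, 89.4 ± 2.07 in Tet2KO, 94.6 ± 2.57 in Id1KO, with 89.3 ± 1.02 in dKO (SD, n = 3). It fell by 0.13 ± 0.033 in Tet2KO against WT (adjusted p = 0.00529) and in dKO against WT (adjusted p = 0.00855). These had, with library totals alone, adjusted p of 0.105 and 0.111. Snrpe was lost in Tet2KO against WT without WT 2, WT 3 or Tet2KO 1 (0.0546 to 0.12). Its pseudogene Snrpert, at 2.34 to 4.36 CPM, passed no test and shares near-identical sequence with it, so their counts are uncertain. Snrpa, the U1 protein A, measured 80.4, 75.9 and 75.4 CPM in WT, 75.4, 73.6 and 71.4 in Tet2KO, 72.4, 71.3 and 73.1 in Id1KO, with 81.8, 73.6 and 80.4 in dKO. The library dKO 2 lay just above Id1KO and the other 2 well above. It rose by 0.12 ± 0.041 in dKO against Id1KO (adjusted p = 0.044), which was lost without Tet2KO 2, any Id1KO library, dKO 1 or dKO 3 (0.0541 to 0.183).

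Among the SF3 subunits, 1 of 3 Sf3a genes (33.3%) and 1 of 5 Sf3b genes (20%) fell in Tet2KO against WT, beside 16.2% of all genes. These were Sf3a3 (-0.09 ± 0.032, adjusted p = 0.04) and Sf3b6, the branch-point-contacting p14 (-0.15 ± 0.039, adjusted p = 0.00663), and neither passed with library totals alone. Sf3a3 was lost without 10 of the 12 libraries, all but Id1KO 2 and dKO 2 (0.0513 to 0.191), and Sf3b6 without WT 3 (0.0548). Sf3b3, a WD40-like scaffold of the complex, measured 430.1, 438 and 429.9 CPM in WT, 425, 434 and 442 in Tet2KO, 464, 457 and 467 in Id1KO, with 449, 465 and 457 in dKO. Both Id1-labelled groups lay above both others. It rose by 0.10 ± 0.025 in Id1KO against WT (adjusted p = 0.0135) and by 0.08 ± 0.026 in dKO against Tet2KO (adjusted p = 0.033), comparisons that share no library. The second was lost without Tet2KO 1, Tet2KO 2, Id1KO 1, dKO 2 or dKO 3 (0.0511 to 0.143).

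Sf3b4, which contacts pre-mRNA upstream of the branch point, measured 48.2, 45.2 and 49.1 CPM in WT, 45.9, 43.6 and 41.2 in Tet2KO, 42.9, 43.1 and 41.8 in Id1KO, with 48.5, 45.8 and 49.2 in dKO. WT and dKO covered nearly the same range, and Id1KO lay below both, while 1 dKO library overlapped Tet2KO. It fell by 0.16 ± 0.048 in Id1KO against WT (adjusted p = 0.0314), rose by 0.17 ± 0.049 in dKO against Id1KO (adjusted p = 0.0202) and rose by 0.14 ± 0.049 in dKO against Tet2KO (adjusted p = 0.0465). Each call rested on single libraries. The first was lost without WT 1, WT 3 or any Id1KO library (0.0576 to 0.141) and the second without Id1KO 3, dKO 1 or dKO 3 (0.0616 to 0.087). The third was lost without 9 of the 12, all but WT 2, Tet2KO 1 and dKO 2 (0.0523 to 0.235).

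**Figure D5:**
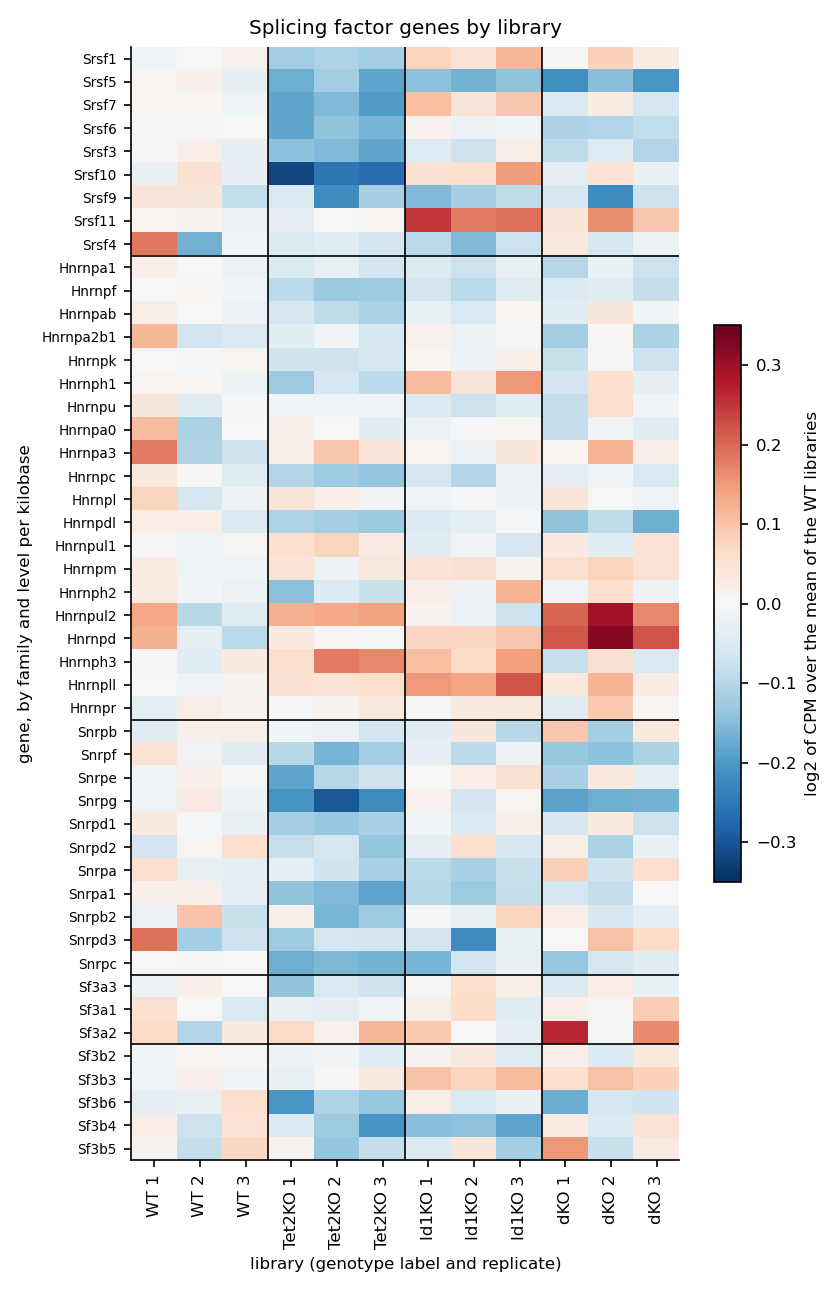
Log2 of CPM over the mean of the WT libraries for the 48 tested protein-coding members (rows, by family and level per kilobase) in the 12 libraries (columns); red is above and blue below WT. The Tet2KO columns are blue over most Srsf and Snrp rows, with Srsf10 and Snrpg the darkest.

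Members called in the same direction in both comparisons of a label were counted, since these share no library. For the Tet2 label 5 were lower in both, Hnrnpdl, Hnrnph1, Snrpg, Srsf6 and Srsf7, which is 25% of the 20 lower in Tet2KO against WT and 71.4% of the 7 lower in dKO against Id1KO. Over all genes tested the shares were 19.8% and 36.8%. Hnrnpul2 was higher in both, out of 1 and 4 members higher (100% and 25%), beside 37.5% and 58.9% over all genes. For the Id1 label 3 were higher in both, Sf3b3, Srsf1 and Srsf11, which is 60% of the 5 in Id1KO against WT and 27.3% of the 11 in dKO against Tet2KO, beside 28.0% and 15.6% over all genes. Sf3b4 and Snrpa1 were called in opposite directions in those 2 comparisons, out of 8 and 12 members called. Over all genes 171 were, which is 7.93% of 2156 and 4.51% of 3793 called. Members were few, and no difference from other genes was tested.

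Other parts of the splicing machinery were described with 144 genes in 6 lists, of which 143 were tested. In Tet2KO against WT 51 were called, 37 lower (25.9%) and 14 higher (9.79%), beside 16.2% and 16.6% of all genes. With library totals alone 10 were lower and 26 higher. Over all genes that scaling gave 1377 lower and 3382 higher calls, so 71.1% of calls were higher, beside 50.6% with TMM. The lists thus moved in the same direction as all genes. In dKO against Tet2KO 50 were called, 44 higher (30.8%) and 6 lower, beside 13.1% higher over all genes, and 40 and 6 with library totals alone. Among 16 snRNP assembly genes 8 fell (50%, beside 16.2% of all genes) and none rose in Tet2KO against WT (3 and 0 with library totals alone). The number that rose in dKO against Tet2KO was 7 (43.8%, beside 13.1%). Gemin6 and Gemin4, parts of the SMN complex that loads Sm rings, changed by -0.23 and -0.19 in the first comparison (adjusted p = 0.0106 and 0.00465) and by 0.34 and 0.23 in the second (adjusted p = 0.000668 and 0.00132). Snupn, the import adaptor of snRNPs, and Gemin8 had -0.29 and -0.24 in the first (adjusted p = 0.05 and 0.0438). Snupn was called in 6 of 23 alternatives and Gemin8 in 13, with adjusted p up to 0.244 and 0.17 apart from the summed libraries, and both were lost without WT 3, Tet2KO 2, Id1KO 3 or dKO 2. Gemin6 was lost in the first without Tet2KO 3, with DESeq2 and with library totals alone (adjusted p up to 0.0824).

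Of 42 proteins of the tri-snRNP and the U1, U2 and minor particles, 11 fell in Tet2KO against WT (26.2%, beside 16.2% of all genes). Another 2 rose (4.76%, beside 16.6%). With library totals alone 3 fell and 4 rose, a shift in the same direction as that of all genes. Of the same genes 14 rose in dKO against Tet2KO (33.3%, beside 13.1%) and 1 fell. Phf5a, which sits in the SF3b complex, averaged 76.1 CPM in WT, 63.7 in Tet2KO, 75.8 in Id1KO, with 76.0 in dKO, with changes of -0.26 (adjusted p = 7.17e-05) and 0.25 (adjusted p = 0.000151). Snrnp27 had -0.29 (adjusted p = 0.00323) and 0.20 (adjusted p = 0.0482), and Snrnp35 of the minor spliceosome -0.27 in the first (adjusted p = 0.0346). The second value of Snrnp27 was called in 10 of 23 alternatives (adjusted p up to 0.19 apart from the summed libraries) and lost without WT 1, WT 2, WT 3, Tet2KO 1, Tet2KO 3, Id1KO 2, dKO 1 or dKO 3. Snrnp35 was lost without WT 1, WT 3, Tet2KO 2 or Tet2KO 3, with DESeq2 and with library totals alone (adjusted p up to 0.212). Of 27 genes of catalytic activation and the Prp19 complex 8 fell (29.6%, beside 16.2% of all genes) and none rose in Tet2KO against WT (3 and 1 with library totals alone). There were 5 that rose in dKO against Tet2KO (18.5%, beside 13.1%), close to the background. Bcas2, a core Prp19 complex protein, changed by -0.22 (adjusted p = 0.000116) and 0.23 (adjusted p = 0.000123), Smu1 by -0.15 and 0.16, and Ctnnbl1 by -0.17 in the first (adjusted p = 0.00642, or 0.0542 without Tet2KO 2).

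Among 17 exon junction and SR-related genes 7 fell (41.2%, beside 16.2% of all genes) and 2 rose (11.8%, beside 16.6%) in Tet2KO against WT. With library totals alone 1 fell and 3 rose, a shift in the same direction as that of all genes. The number that rose in dKO against Tet2KO was 7 (41.2%, beside 13.1%). Srrm2, a large scaffold of nuclear speckles, averaged 536 CPM in WT, 676 in Tet2KO, 488 in Id1KO, with 664 in dKO, a change of 0.33 in Tet2KO against WT (adjusted p = 5.3e-07). Tra2b, an SR-like exon activator, averaged 352, 323, 386 and 365 in that order, with -0.12 and 0.18 (adjusted p = 0.00208 and 0.000107), and Tra2a had -0.03 (adjusted p = 0.612) and 0.20 (adjusted p = 0.000202). The first value of Tra2b had an adjusted p of 0.0873 with library totals alone. Magoh of the exon junction complex had -0.18 and 0.13. The second was lost with DESeq2 and without any Tet2KO library, dKO 2 or dKO 3 (adjusted p up to 0.124).

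Of 9 tested genes of SR protein phosphorylation and import, 3 rose (33.3%, beside 16.6% of all genes) and 1 fell (11.1%, beside 16.2%) in Tet2KO against WT (4 and 0 with library totals alone). In dKO against Tet2KO 3 fell (33.3%, beside 13.4%) and 2 rose (22.2%, beside 13.1%). Clk4 averaged 73.7 CPM in WT, 85.4 in Tet2KO, 85.4 in Id1KO, with 72.4 in dKO, with 0.21 (adjusted p = 0.000404) and -0.24 (adjusted p = 0.000223). Clk1 had 0.13 (adjusted p = 0.00993) and -0.17 (adjusted p = 0.0019), and Dyrk1a 0.13 in the first (adjusted p = 0.0157, or 0.0757 without Tet2KO 3). Among 32 other splicing regulators 7 rose (21.9%, near the 16.6% of all genes) and 2 fell (6.25%, beside 16.2%) in Tet2KO against WT (14 and 0 with library totals alone). Pcbp2, a poly(C)-binding protein, rose by 0.37 in Tet2KO against WT and by 0.26 in dKO against Tet2KO, and its paralogue Pcbp1 had 0.02 (adjusted p = 0.865) and 0.24 (adjusted p = 0.00451). Rbfox2, at 1.03 to 1.86 CPM, had 0.75 in the first (adjusted p = 0.0191), lost with DESeq2 (0.106) and without WT 3 or Tet2KO 3.

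Across the 49 members the log2 fold change in Tet2KO against WT had a Spearman correlation of 0.34 with merged exon length, beside 0.13 over all genes, so shorter members lay lower. Genes share libraries and depth, so these values are a description only. The correlation with mean CPM was 0.05, beside -0.10.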

How the data were processed

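RNA from 12 libraries was prepared with a ribosomal-depletion total RNA kit that keeps strand, per the labels' protocols. The authors deposited estimated counts per gene; the submitters' processing notes name STAR, RSEM and the build mm10, and versions and the strand setting are not given in the sources used here. All 55450 gene identifiers matched GENCODE M21, which gave coordinates and exon lengths. Counts were rounded. edgeR 4.0.16 (R 4.3.3) with filterByExpr (minimum count 10), TMM scaling and a quasi-likelihood fit of all 12 libraries tested 14346 genes in 6 two-sided contrasts, with Benjamini-Hochberg adjustment over all genes; members had no separate adjustment. CPM are TMM scaled. Members, lists and motifs were chosen with earlier results of these data known. Given library by library were, per contrast, up to 4 called members in each direction with at least 5 CPM and no overlap between libraries, and the highest per kilobase of each family; Hnrnpul2 in Tet2KO against WT, Srsf6 and Hnrnph1 in dKO against Id1KO, and the remaining members described were added after their values were seen.

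Transcripts were compared by blast 2.17.0 (at least 95% identity over 200 bases) to find near-identical genes. Alternatives were other scalings, DESeq2 1.42.0, other filters, a replicate block, leaving out each library, summed libraries, summed copies and a stricter threshold; library totals alone were added after the data were seen. Scripts were tested on simulated data. The labels do not say whether equal replicate numbers pair libraries, and the main fit did not pair them.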

Additional observations from a re-analysis of the deposited data

Results flagged for a closer look

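For 9 members the change with the Id1 label differed between the Tet2KO and WT backgrounds, by edgeR's test of the difference itself (the change in dKO against Tet2KO less the change in Id1KO against WT, on the log2 scale). This is 18.4% of the members, beside 14.5% of all genes tested. It was positive in 7 (14.3%, beside 7.46%) and negative in 2 (4.08%, beside 7.03%). Sf3b4 had 0.29 ± 0.069 (SE; adjusted p = 0.00682), made up of -0.16 in Id1KO against WT and 0.14 in dKO against Tet2KO. Snrpa1 had 0.22 ± 0.048 (adjusted p = 0.0045), from -0.10 and 0.11. Srsf10 had 0.19 ± 0.048 (adjusted p = 0.0101), from 0.09, which did not pass the test, and 0.28. Of the other positive values, Snrpa had 0.19, Hnrnpc 0.15, Hnrnpf 0.13 and Srsf5 0.12. The negative values were -0.27 for Hnrnph3, from 0.11 and -0.16, and -0.16 for Hnrnpll.

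The calls of Sf3b4, Snrpa1 and Srsf10 held when any library was left out, with adjusted p up to 0.0406. With library totals alone Srsf10 was lost (0.14, adjusted p = 0.0664), while Sf3b4 and Snrpa1 had adjusted p of 0.0188 and 0.0233. Without Tet2KO 3, 4 members were called, beside 1582 over all genes. Snrpa was lost without 7 of the 12 libraries in turn, WT 1, Tet2KO 2, Tet2KO 3, Id1KO 1, Id1KO 2, dKO 1 or dKO 3 (adjusted p 0.0573 to 0.0873). Srsf5 was lost without 9 of the 12, all but WT 3, Tet2KO 2 and dKO 1 (0.0626 to 0.127). Hnrnpf was lost without Tet2KO 2, Tet2KO 3, Id1KO 1 or Id1KO 2 (0.0542 to 0.0693), Hnrnpc without Tet2KO 3 (0.0535), Hnrnph3 without Tet2KO 2 or Tet2KO 3 (0.0502 to 0.0515) and Hnrnpll without Id1KO 3 or dKO 3 (0.053 to 0.0572). With library totals alone 5 members were called in all, 2 positive and 3 negative, beside 654 positive and 1681 negative over all 14346 genes. In the interaction all 11 erythroid markers were positive and called. Of 6 megakaryocyte markers 3 were called negative and 0 positive, and of 6 mast cell and basophil markers 2 and 0. Of 5 monocyte and dendritic markers 2 were called negative and 2 positive, and of 10 neutrophil granule markers 2 and 1. The 5 tested B and T cell markers had 1 negative call. The part of these marker differences in the member values was not tested.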

How the results depend on the processing

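Of 70 called pairs of member and comparison, 25 were called in every alternative except the summed libraries, and 68 changed sign in none. When the libraries of a genotype were summed to 1 sample, with additive effects and 1 residual degree of freedom, the fit had 1 effect per label, and 0 members were called for either. At an unadjusted p under 0.05 there were 6 for the Tet2 label and 4 for the Id1 label. DESeq2 on the separate libraries called 19 of 49 members in Tet2KO against WT, beside 3334 of 13880 genes over all. It called 7 in Id1KO against WT (beside 1220 of 12426) and 9 in dKO against Tet2KO (beside 2503 of 12911). In dKO against Id1KO it called 8 (beside 1695 of 14366) and in dKO against WT 10 (beside 1640 of 14851). For the interaction it called 6 (beside 1180 of 11456). Over all genes the summed fit called 566 for the Tet2 label and 38 for the Id1 label. Its Id1 effect averages Id1KO against WT and dKO against Tet2KO, so the values of 0.004 for Snrpa1 (adjusted p = 0.988) and -0.011 for Sf3b4 (adjusted p = 0.977), whose changes there were opposite, follow from its construction and bear on neither comparison. It was not run for dKO against WT or the interaction.

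With library totals alone the calls were 13 in Tet2KO against WT and 5 in the interaction, beside 4759 and 2335 over all 14346 genes. The replicate block gave 5 calls in Id1KO against WT, beside 1952 over all genes, and stayed within 1.5 times elsewhere. The same-numbered libraries correlated by -0.11 to 0.12 over 18 pairs, and 7 of 12 libraries correlated best with their own number. At a threshold of 0.01 there were 15 calls in Tet2KO against WT (beside 3122 of all 14346 genes) and 3 in Id1KO against WT (beside 1085). There were 4 in dKO against Tet2KO (beside 2285) and 5 in dKO against Id1KO (beside 1599). In dKO against WT there were 7 (beside 1557) and in the interaction 2 (beside 972). Leaving out 1 library gave 16 to 24 calls in Tet2KO against WT (beside 3807 to 4964 over all genes). In Id1KO against WT it gave 4 to 10 (beside 1513 to 2386) and in dKO against Tet2KO 6 to 12 (beside 2951 to 3847). It gave 4 to 17 in dKO against Id1KO (beside 2109 to 2837) and 7 to 12 in dKO against WT (beside 1999 to 2784). For the interaction it gave 4 to 10 (beside 1582 to 2161). The causes were not tested. Srsf12 and Snrpn were too low to test.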
